A study of Mus musculus with 4 samples.

Results

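The genes described are 9 members of the pathway that turns extracellular ATP into adenosine and senses both: the ectonucleotidases Entpd1 and Nt5e, the adenosine receptors Adora2a, Adora2b and Adora3, the ATP-gated channels P2rx4 and P2rx7, and the nucleotide receptors P2ry6 and P2ry12. They were chosen by name from 55487 genes in the count table, and Nt5e was picked because it was much lower in LysM-Cre IL10R fl/fl. Its values between the genotypes are therefore given as a description with no test, and the other 8 members were listed with earlier results of these data known. RNA was measured in CD45+ CD3- CD11c- CD11b+ cells sorted from perfused livers of mice, by poly(A)-enriched sequencing, in 2 libraries of LysM-Cre IL10R wt/wt and 2 of LysM-Cre IL10R fl/fl. Both groups carry LysM-Cre, a Cre recombinase expressed from the lysozyme locus of macrophages, monocytes and granulocytes, and they differ in whether loxP sites flank a gene of the interleukin-10 receptor. The labels name no age, sex, treatment or tumour state of the mice and do not say whether replicate libraries are separate animals, so p-values measure the spread between these samples; in wt/wt it may be technical, while the fl/fl libraries came from mice of different sex.

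ATP released by stressed or dying cells acts as a danger signal on P2X channels and P2Y receptors of myeloid cells. CD39, the product of Entpd1, removes phosphates from ATP and ADP to leave AMP, and CD73, the product of Nt5e, converts AMP to adenosine. Adenosine then restrains inflammatory responses of myeloid cells, mainly through the cAMP-raising receptors Adora2a and Adora2b, until it is taken up by transporters or deaminated by adenosine deaminase.

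The promoters of 3 genes are shown because they lie at contrasting points of the pathway: Nt5e makes adenosine, Ada removes it, and P2ry12 senses ADP. Each is the 250 bases before the RefSeq start on GRCm38.p6, read 5′ to 3′ on the gene's strand. The positions are chr9:88327359-88327608 (plus) for Nt5e, chr2:163750240-163750489 (minus) for Ada and chr3:59262986-59263235 (minus) for P2ry12. Capitals mark matches on either strand to GGGCGG, the core of Sp1 sites, and to TTCNNNGAA, the spacing bound by STAT factors. Matches to GGGCGG do not overlap matches to TTCNNNGAA here.
Nt5e: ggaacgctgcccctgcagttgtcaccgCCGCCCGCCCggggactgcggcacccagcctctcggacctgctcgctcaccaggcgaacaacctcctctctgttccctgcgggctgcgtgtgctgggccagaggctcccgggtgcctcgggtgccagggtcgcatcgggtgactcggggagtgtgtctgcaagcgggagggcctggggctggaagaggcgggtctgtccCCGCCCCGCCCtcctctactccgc
Ada: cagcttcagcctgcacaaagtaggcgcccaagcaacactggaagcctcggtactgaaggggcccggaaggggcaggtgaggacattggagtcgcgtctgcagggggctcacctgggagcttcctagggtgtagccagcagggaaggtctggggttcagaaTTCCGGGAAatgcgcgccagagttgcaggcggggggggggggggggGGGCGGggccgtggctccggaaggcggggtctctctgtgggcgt
P2ry12: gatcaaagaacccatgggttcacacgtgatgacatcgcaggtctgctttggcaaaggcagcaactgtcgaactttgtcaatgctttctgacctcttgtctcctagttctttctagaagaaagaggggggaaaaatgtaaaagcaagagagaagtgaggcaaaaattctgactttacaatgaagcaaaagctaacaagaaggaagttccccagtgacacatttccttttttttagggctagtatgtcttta
The Nt5e stretch had a GC content of 72.0% and 4 matches to GGGCGG, which overlap in pairs and so show as 2 runs of capitals. The Ada stretch had 67.2% GC, 1 match to GGGCGG and 1 to TTCNNNGAA. The P2ry12 stretch had 41.6% GC and neither motif. Among 32851 RefSeq windows, 32.7% held GGGCGG and 7.0% held TTCNNNGAA in the same 250 bases. RefSeq windows of 300 bases, which add 50 bases after the start, were matched for 7 of the 9 members, with 2 starts each for Entpd1 and P2rx7. None of these 9 windows held TTCNNNGAA, against 8.3% of all windows. TGACG, the half-site of cAMP response elements, was in both Entpd1 windows and in P2rx4, against 20.8% of all windows. TGANTCA, the AP-1 motif, was in Adora3 and in 1 window of P2rx7, against 7.8% of all windows. These matches describe letters and not binding.

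On GRCm38 in the GENCODE annotation, the enzyme genes were Entpd1 (ENSMUSG00000048120) at chromosome 19, 40612366 to 40741602, plus strand, and Nt5e (ENSMUSG00000032420) at chromosome 9, 88327197 to 88372092, plus strand. Adora2a (ENSMUSG00000020178) lay at chromosome 10, 75316877 to 75334784, plus strand. Adora2b (ENSMUSG00000018500) lay at chromosome 11, 62248984 to 62266453, plus strand. Adora3 (ENSMUSG00000000562) lay at chromosome 3, 105870858 to 105908926, plus strand. P2rx7 (ENSMUSG00000029468; 122643911 to 122691432) and P2rx4 (ENSMUSG00000029470; 122707544 to 122729738) were neighbours on the plus strand of chromosome 5. P2ry6 (ENSMUSG00000048779) was at chromosome 7, 100937630 to 100974649, and P2ry12 (ENSMUSG00000036353) at chromosome 3, 59216272 to 59262871, both on the minus strand. All 9 are protein-coding, and a value is a sum over all exons of the gene, so exons and isoforms cannot be told apart. Adora3 shared 20.9% of its exonic length with Tmigd3 on the same strand, and its count is uncertain to that extent. Tmigd3 itself held 3 to 6 counts a library.

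Total counts were 22694136 and 26441014 in wt/wt 1 and 2 and 17750343 and 17154042 in fl/fl 1 and 2. Il10ra, the ligand-binding chain of the receptor, held 1111 and 993 CPM (counts scaled to library size with TMM factors) in wt/wt against 69.3 and 14.8 in fl/fl, in the direction the labels give if Il10ra is the floxed chain, which they do not name. The fl/fl libraries stood apart from each other. Xist counts were 4298 for fl/fl 2 and 0 elsewhere, and 4 Y-linked genes had 1 count there against 3455 to 6562, so fl/fl 2 came from a female and the others from males. Sex is thus partly confounded with genotype. Below, fits without fl/fl 2 compare males only, and fits without fl/fl 1 set a female against males. Of 8 myeloid core genes, 0 passed in edgeR and limma-voom and 3 in DESeq2, where 12% of all genes passed. Both fl/fl libraries were below both wt/wt libraries for 3 of them and above for 3, against 26.3% and 28.1% of all genes. Itgam held 368 to 501 CPM and Ptprc 1095 to 1580. Lyz2 held 18.4 and 23.3 CPM in wt/wt against 26.4 and 80.4 in fl/fl. Lyz1, which is not on that list, held 566 and 473 CPM against 283 and 161. Csf1r held 1677 and 1565 CPM in wt/wt against 817 and 1179 in fl/fl. Cd3e of T cells had 0 to 2 counts. Itgax, the gene of the CD11c that the sort gated out, held 158 and 134 CPM in wt/wt against 24.6 and 47.1 in fl/fl. The Kupffer cell markers Clec4f, Vsig4 and Timd4 had 0 to 15 counts a library, whereas C1qa, of the same list, held 231 and 230 CPM in wt/wt against 41.1 and 12.3 in fl/fl. Adgre1, also of that list, held 178 and 183 CPM against 150 and 156 (log2 fold change −0.24, adjusted p = 0.406, edgeR). All 12 mature neutrophil markers were higher in both fl/fl libraries, and 10 passed the test; their summed level was 3188 and 3984 CPM in wt/wt 1 and 2 against 37269 and 17162 in fl/fl 1 and 2. The summed level of 7 granulocyte precursor markers was 75.8 and 212.9 CPM against 2120 and 584. Most of the sum in wt/wt 2 was Chil1, at 27.4 and 173 CPM in wt/wt against 604 and 106 in fl/fl. Chil1 did not pass (adjusted p = 0.331, edgeR), and the other 6 passed as higher, as did 2.69% of all genes tested. DESeq2 called 11 of the 12 neutrophil markers and 6 of the 7 precursor markers. Limma-voom called 9 and 4 of them, and 665 of all genes tested. The part of these shifts in the differences below was not tested, and in bulk RNA fewer cells of a type and less RNA per cell cannot be told apart.

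Most of the 9 genes were lower in fl/fl, the enzyme that makes adenosine by far the most. Nt5e was 11.4-fold lower, P2ry6 fell 2.65-fold, and Adora3 alone had both fl/fl libraries above both wt/wt libraries. All 9 passed the filter on low counts. Of the 8 members other than Nt5e, P2ry6 passed the edgeR quasi-likelihood test at an adjusted p under 0.05 and 7 did not. Over all 13496 genes tested, 5.85% passed, 3.16% as lower and 2.69% as higher. An unadjusted p under 0.05 in edgeR was reached by 4 of the 8 and by 3040 of the 13496. Among those 8, 6 had both fl/fl libraries below both wt/wt libraries, as did 26.3% of all genes, and 1 had both above, as did 28.1%. Their median log2 fold change was −0.69, against 0.02 over all genes tested. In DESeq2 4 of the 8 passed, all lower, where 12% of all genes passed and 6.18% were lower. Summed over the 8 members other than Nt5e, the level was 495 and 445 CPM in wt/wt 1 and 2 against 250 and 243 in fl/fl 1 and 2.

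**Figure D1:**
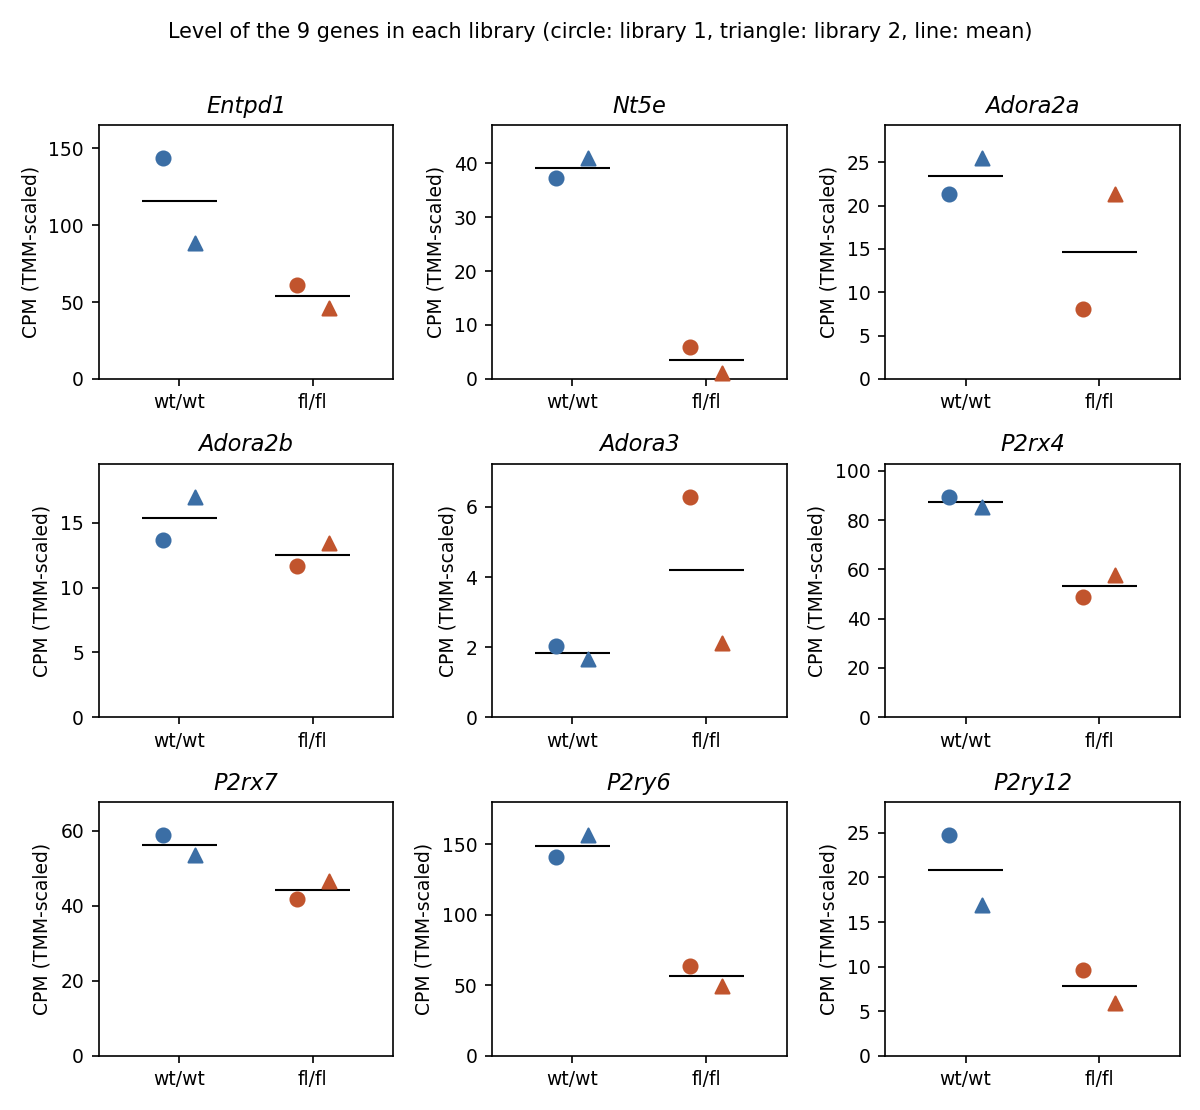
TMM-scaled CPM of the 9 genes in each of the 4 libraries, with each panel's axis starting at 0; circles are library 1, triangles library 2 and lines the mean of a genotype. The groups overlap only in Adora2a, where fl/fl 2 at 21.3 CPM lies just above wt/wt 1 at 21.3 CPM, and Nt5e lies at 37.3 and 40.9 CPM in wt/wt against 5.82 and 1.03 in fl/fl.

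The ectonucleotidases act in sequence. Entpd1, which hydrolyses ATP and ADP, held 143 and 88.5 CPM in wt/wt 1 and 2 against 60.9 and 46.4 in fl/fl 1 and 2. The groups did not overlap, and the wt/wt libraries differed 1.62-fold from each other. Means were 116 ± 38.9 CPM (SD, n = 2) and 53.6 ± 10.2 CPM (SD, n = 2), a 2.16-fold difference. On the log2 scale Entpd1 differed by −1.11 ± 0.27 (SE; adjusted p = 0.0617, edgeR quasi-likelihood test with Benjamini-Hochberg adjustment), so it did not pass. DESeq2 called it (adjusted p = 0.00302), limma-voom did not (0.0606), and it passed without fl/fl 1 (0.0279).

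Nt5e, the next enzyme, held 37.3 and 40.9 CPM in wt/wt 1 and 2, from 830 and 1111 counts. In fl/fl 1 and 2 it held 5.82 and 1.03 CPM, from 100 and 18 counts. The wt/wt libraries were close to each other, whereas fl/fl 1 was 5.67-fold above fl/fl 2. Both values in fl/fl were above the floor of 3 counts, which is 0.175 and 0.171 CPM there and covers counting error only. Means were 39.1 ± 2.58 CPM (SD, n = 2) and 3.43 ± 3.39 CPM (SD, n = 2). On the log2 scale the fold change was −3.51; leaving out fl/fl 1 gave −5.28 and leaving out fl/fl 2 gave −2.74. Nt5e is the member whose fold change moved most when a library was left out. Its order among the libraries, with fl/fl 2 lowest and fl/fl 1 next, was also that of Il10ra and of C1qa. Both fl/fl libraries were below both wt/wt libraries for 26.3% of all genes, and the share with this exact order was not counted. The likeness of each gene to Nt5e was measured as the Euclidean distance of log2 CPM centred over the 4 libraries, among 6638 protein-coding genes of at least median expression, where the median distance was 3.99. The 5 nearest were Hic1 (distance 0.36), a transcriptional repressor, Rai14 (0.38), Emp1 (0.43), C1qa (0.44) and the transporter gene Abcc3 (0.55). Hic1 held 53.5 and 60.1 CPM in wt/wt against 10.9 and 2.40 in fl/fl. That the nearest genes were lower in fl/fl follows from the choice of Nt5e, and a link between them was not tested.

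Per kilobase of exon, Entpd1 exceeded Nt5e by 5.93-fold and 3.33-fold in wt/wt 1 and 2, and by 16.1-fold and 69.6-fold in fl/fl 1 and 2. The mRNA of the enzyme that leaves AMP was thus in larger excess over that of the enzyme that uses AMP in both fl/fl libraries, which follows from the choice of Nt5e.

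Of the 3 adenosine receptors, 0 passed in edgeR, DESeq2 or limma-voom with all libraries, and 0 had an unadjusted p under 0.05 in edgeR. Adora2a, which raises cAMP at low adenosine, held 21.3 and 25.5 CPM in wt/wt 1 and 2 against 8.04 and 21.3 in fl/fl 1 and 2. The groups overlapped, because fl/fl 2 was at the level of wt/wt 1 while fl/fl 1 was 2.66-fold lower than fl/fl 2. Adora2a had a log2 fold change of −0.67 ± 0.43 (SE; adjusted p = 0.415, edgeR). Leaving out fl/fl 1 gave −0.17 and leaving out fl/fl 2 gave −1.53, where it passed (adjusted p = 0.00770). Adora2b, which couples to the same second messenger but needs more adenosine, held 13.7 and 17.0 CPM in wt/wt against 11.6 and 13.5 in fl/fl. It had a log2 fold change of −0.29 ± 0.24 (SE; adjusted p = 0.548, edgeR), and it passed under no alternative (adjusted p from 0.456 to 0.892). Both fl/fl values of Adora2b were below both wt/wt values, but the nearest pair, 13.7 and 13.5 CPM, was close.

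Adora3, a receptor that lowers cAMP and is known from mast cells and eosinophils, held 2.02 and 1.66 CPM in wt/wt against 6.29 and 2.11 in fl/fl, from 37 to 108 counts. The higher mean in fl/fl came mainly from fl/fl 1. Adora3 had a log2 fold change of 1.19 ± 0.59 (SE; adjusted p = 0.297, edgeR). Leaving out fl/fl 1 gave 0.16 and leaving out fl/fl 2 gave 1.78 (adjusted p = 0.0432). The summed level of 6 basophil and mast cell markers was 21.7 and 32.5 CPM in wt/wt against 40.1 and 44.2 in fl/fl. Of these, 0 passed in edgeR and limma-voom, 2 in DESeq2 and 3 at an unadjusted p under 0.05, as did 3040 of all 13496 genes tested. Single markers differed in their order. Kit stood at 13.7 CPM in fl/fl 1 against 1.22 to 2.23 elsewhere, whereas Gata2 (9.55 against 16.1 to 30.6 CPM) and Ms4a2 (0.99 against 1.98 to 3.61 CPM) were lowest in fl/fl 1. The summed level of 5 eosinophil markers was 5.01 to 5.75 CPM in wt/wt and fl/fl 1 and 16.8 in fl/fl 2, and Epx had 0 to 2 counts. Prg2 of that list had 0 counts in both wt/wt libraries against 17 and 47 in fl/fl 1 and 2. It was the 1 eosinophil marker called higher in edgeR. Because it passed the filter on low counts only through fl/fl, this call is given no weight. The part of these cells in the Adora3 values was not tested.

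The ATP-gated channels were both detected in every library. P2rx4, a channel of the cell surface and of lysosomes, held 89.4 and 85.5 CPM in wt/wt 1 and 2 against 48.7 and 57.9 in fl/fl 1 and 2. Replicates were close and the groups did not overlap. It had a log2 fold change of −0.71 ± 0.17 (SE; adjusted p = 0.0579, edgeR), so that it did not pass, while DESeq2 called it (adjusted p = 0.00691), as did edgeR without fl/fl 2 (0.0331) and limma-voom did not (0.0540). P2rx7, the channel that opens at high ATP and triggers the NLRP3 inflammasome, held 58.8 and 53.5 CPM in wt/wt against 41.9 and 46.6 in fl/fl. The groups did not overlap, at a log2 fold change of −0.34 ± 0.17 (SE; adjusted p = 0.287, edgeR), and P2rx7 passed under no alternative (adjusted p from 0.227 to 0.721). The simulated check of this design recovered 56% of genes changed by 1 on the log2 scale, and smaller changes were not simulated. It covered genes of at least median level whose spread followed the overall trend. Per kilobase of exon, P2rx4 exceeded P2rx7 by 1.29-fold and 1.36-fold in wt/wt, and their ratio was 0.99 and 1.05 in fl/fl.

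P2ry6, a receptor for UDP that is known to drive phagocytosis and chemokine release, was the most abundant member per exonic length and fell in fl/fl. It held 141 and 156 CPM in wt/wt 1 and 2 against 63.4 and 49.1 in fl/fl 1 and 2. Both pairs were close and well apart, at 149 ± 10.9 CPM (SD, n = 2) and 56.2 ± 10.1 CPM (SD, n = 2). P2ry6 had a log2 fold change of −1.40 ± 0.18 (SE; adjusted p = 0.0155, edgeR), and DESeq2 and limma-voom also called it (adjusted p = 4.50e-08 and 0.0132). Without wt/wt 1 or wt/wt 2, where edgeR called 0 of all genes (1576 and 2333 at an unadjusted p under 0.05), P2ry6 did not pass (adjusted p = 0.147 and 0.100) at log2 fold changes of −1.52 and −1.32. Without fl/fl 1 or fl/fl 2 it passed, at −1.64 and −1.23.

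P2ry12, the ADP receptor best known from platelets and microglia, held 24.8 and 16.9 CPM in wt/wt 1 and 2 against 9.67 and 5.88 in fl/fl 1 and 2. The groups did not overlap, and the mean was 2.68-fold lower in fl/fl. Its log2 fold change of −1.42 ± 0.33 (SE; adjusted p = 0.0589, edgeR) did not pass. DESeq2 called it (adjusted p = 0.00361), limma-voom did not (0.0653), and edgeR did without fl/fl 1 (0.00979). Of 7 platelet markers, the summed level was 13.9 and 15.2 CPM in wt/wt against 7.28 and 11.6 in fl/fl, with Gp1bb at 0 in every library and Pf4, a chemokine gene, the 1 marker that passed in edgeR (log2 fold change −2.30, adjusted p = 0.0424) and not in limma-voom. Of 4 genes used as microglia markers, Sall1 had 0 to 1 count, while Tmem119 held 76.0 and 105 CPM in wt/wt against 10.2 and 0.57 in fl/fl (adjusted p = 0.0546, edgeR).

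Compared per kilobase of exon, the order of mean levels in wt/wt was P2ry6 (51.5 CPM per kb), Entpd1 (20.8), P2rx4 (12.4), P2rx7 (9.40), Adora2b (8.33), P2ry12 (8.17), Adora2a (7.63), Nt5e (4.55) and Adora3 (0.49). From P2rx7 to Adora2a the ranges of neighbouring genes overlapped, while the other neighbours were apart in both libraries. In fl/fl the first 5 places were held by the same genes, at 19.5, 9.61, 7.58, 7.41 and 6.81 CPM per kb. Adora2a (4.80), P2ry12 (3.05), Adora3 (1.13) and Nt5e (0.40) followed, so that Nt5e moved to the last place, although its range overlapped that of Adora3. From P2rx4 to P2ry12 the ranges of neighbours overlapped in fl/fl.

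**Figure D2:**
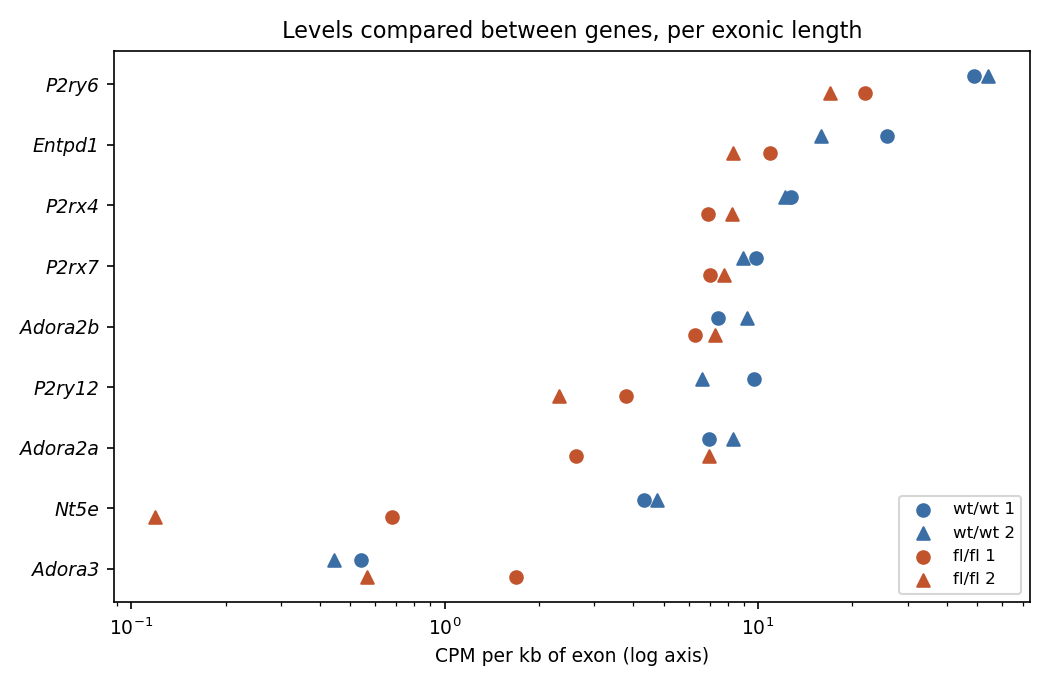
Level of each gene in the 4 libraries as TMM-scaled CPM per kilobase of exon, on a log axis, in the order of the wt/wt mean; colours are genotypes and symbols are library numbers. P2ry6 leads in both genotypes, and Nt5e spreads from 4.55 CPM per kb on average in wt/wt to 0.40 in fl/fl.

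The other genes of the pathway changed in both directions. Of 41 further genes of nucleotide release, breakdown, uptake and sensing, 29 passed the filter on low counts, of which 4 rose, 1 fell and 24 did not pass the test in edgeR, where 5.85% of all genes passed. Of the 29, 14 had both fl/fl libraries above both wt/wt libraries and 6 below, against 28.1% and 26.3% of all genes, and the median log2 fold change was 0.49. DESeq2 called 8 higher and 1 lower.

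Of 11 genes of adenosine uptake and breakdown, 3 rose and 1 fell, and these 4 are Ada, Slc28a2, Ampd3 and Slc29a3. Ada, the deaminase that turns adenosine into inosine, held 1.44 and 1.92 CPM in wt/wt 1 and 2 against 35.5 and 11.6 in fl/fl 1 and 2. Both fl/fl libraries were far above wt/wt, and fl/fl 1 was 3.05-fold above fl/fl 2. Ada had a log2 fold change of 3.80 ± 0.57 (SE; adjusted p = 0.0193, edgeR), with 2.75 when fl/fl 1 and 4.40 when fl/fl 2 was left out, and limma-voom did not call it (adjusted p = 0.0539). Granulocyte precursor markers had the same order among the libraries of fl/fl, at 2120 and 584 CPM summed. So did mature neutrophil markers, at 37269 and 17162 CPM summed. The share of all genes with this order was not counted, and the part of these cells in the Ada values was not tested.

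Slc28a2, a sodium-coupled transporter that imports adenosine, rose from 35.7 and 27.0 CPM to 86.8 and 78.9 (log2 fold change 1.40 ± 0.20, SE; adjusted p = 0.0182, edgeR). Slc29a3, a nucleoside transporter of lysosomes, fell from 195 and 152 CPM to 49.7 and 48.9 (log2 fold change −1.82 ± 0.18, SE; adjusted p = 0.00906, edgeR). The fl/fl libraries agree within 1.02-fold for Slc29a3 and 1.10-fold for Slc28a2, unlike Nt5e and Ada. Ampd3, which deaminates AMP inside the cell, rose from 32.4 and 42.7 CPM to 92.5 and 72.2 (log2 fold change 1.13, adjusted p = 0.0327, edgeR), and did not pass without fl/fl 1 (adjusted p = 0.0536). Pnp, the next enzyme after the deaminase, held 124 and 85.7 CPM in wt/wt against 115 and 121 in fl/fl (adjusted p = 0.700, edgeR), and a gene on the same strand covers 18.0% of its exons. None of the 5 calls was kept without wt/wt 1 or wt/wt 2, at adjusted p from 0.0520 (Slc29a3 without wt/wt 2) to 0.300 (Ampd3 without wt/wt 1), while the log2 fold changes in these fits were −1.67 and −1.98 for Slc29a3 and 3.57 and 4.03 for Ada.

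Among other ectoenzymes that consume nucleotides, 5 of 10 passed the filter and 1 rose. Entpd3, a relative of CD39 that also hydrolyses ATP, held 1.21 and 2.10 CPM in wt/wt 1 and 2 against 26.4 and 11.0 in fl/fl 1 and 2. It had a log2 fold change of 3.48 ± 0.52 (SE; adjusted p = 0.0193, edgeR), with 2.67 when fl/fl 1 and 3.98 when fl/fl 2 was left out, and it did not pass without wt/wt 1 or wt/wt 2 (adjusted p = 0.199 and 0.100). Per kilobase of exon, Entpd3 stood at 0.44 CPM per kb in wt/wt and 4.97 in fl/fl, against 20.8 and 9.61 for Entpd1. Cd38, which hydrolyses NAD, held 2.87 and 4.31 CPM in wt/wt against 102 and 11.6 in fl/fl, so that fl/fl 1 was 8.82-fold above fl/fl 2. It did not pass (log2 fold change 3.98 ± 0.93, SE; adjusted p = 0.0593, edgeR), but leaving out fl/fl 1 gave 1.64 and leaving out fl/fl 2 gave 4.82, and it passed in both (adjusted p = 0.0300 and 2.27e-05). DESeq2 called 3 of the 5, among them Cd38 (adjusted p = 0.0275), and limma-voom did not call Cd38 (0.206). Bst1, the neighbouring relative of Cd38, held 53.0 and 56.1 CPM in wt/wt against 186 and 95.2 in fl/fl (at a log2 fold change of 1.36, adjusted p = 0.0512, edgeR; 0.000801 in DESeq2 and 0.000459 without fl/fl 2, both of which passed). Entpd2, Entpd8 and Alpl had 0 counts in all libraries.

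**Figure D3:**
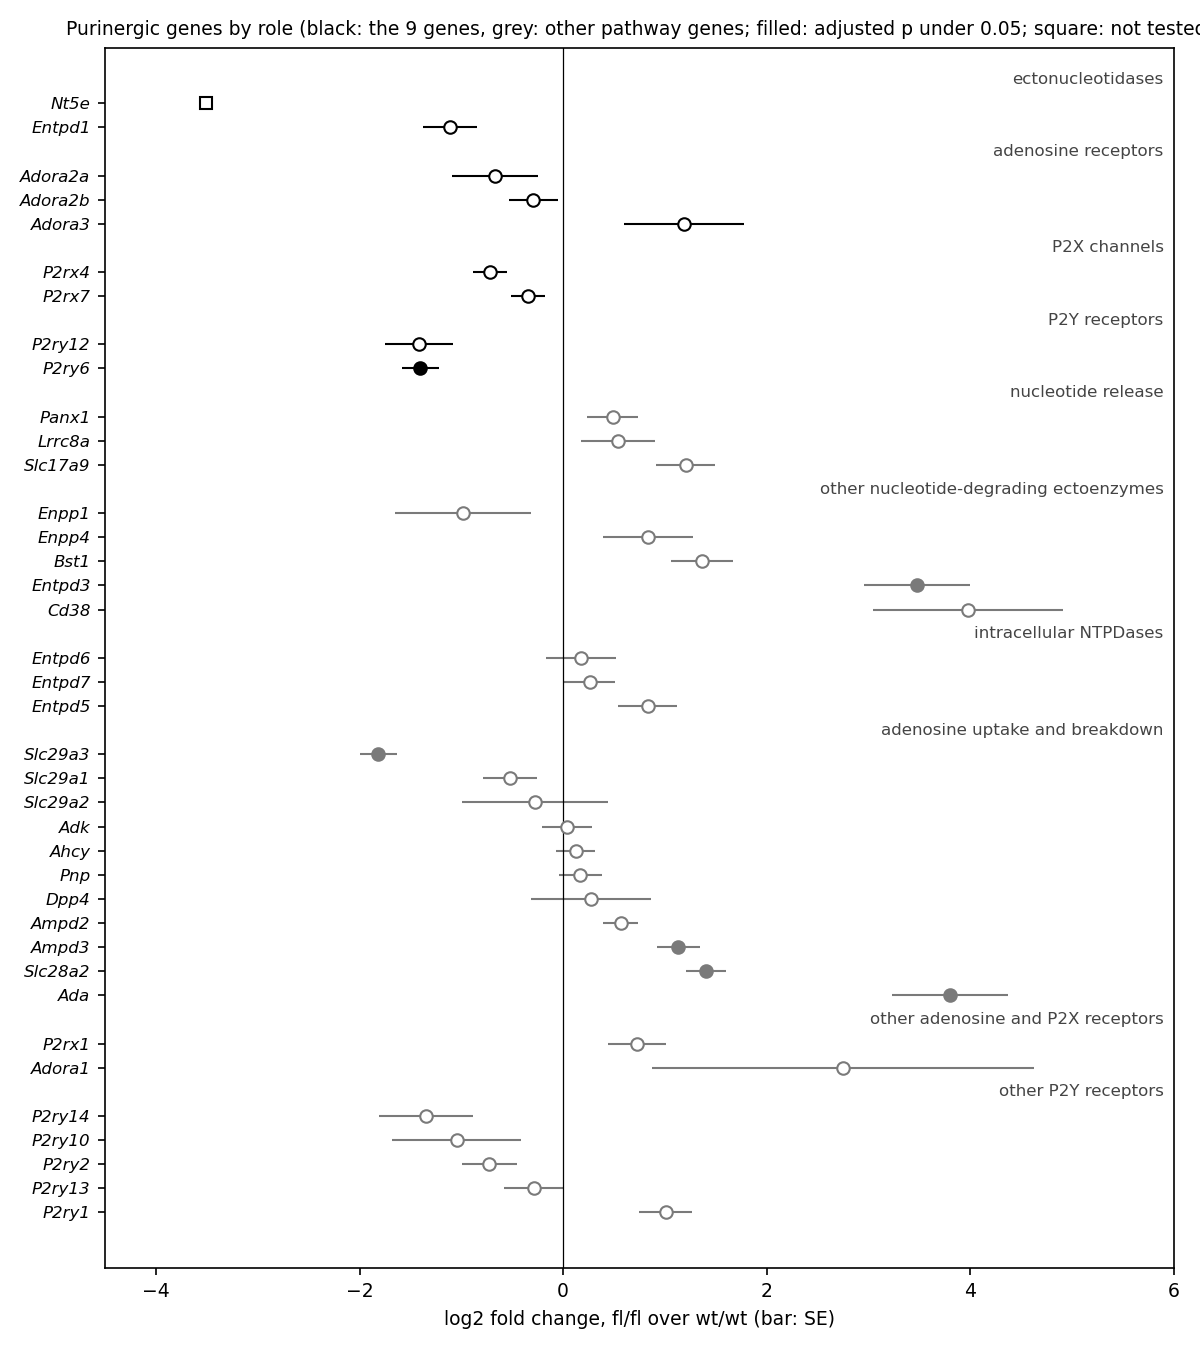
Log2 fold change of fl/fl over wt/wt with its SE for the 9 genes (black) and the 29 other pathway genes that passed the filter (grey), grouped by role; filled points passed at an adjusted p under 0.05 in edgeR, and the square of Nt5e has no bar because it was not tested. Entpd1 and Nt5e lie to the left at −1.11 and −3.51, Ada and Entpd3 to the right at 3.80 and 3.48.

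Of 3 tested genes of nucleotide release, 0 passed in edgeR and limma-voom and 1 in DESeq2. At an unadjusted p under 0.05 in edgeR there was 1, against 3040 of all 13496 genes tested. Panx1, a channel that lets ATP out, held 16.8 and 19.0 CPM in wt/wt against 20.0 and 30.1 in fl/fl, and Slc17a9, which loads ATP into vesicles, held 8.27 and 10.3 against 26.0 and 16.8 (log2 fold change 1.21, adjusted p = 0.0632). Lrrc8a, a channel subunit, held 2.92 and 3.57 CPM against 4.54 and 4.91, and a gene on the same strand covers 66.2% of its exons. Of the intracellular relatives of CD39, Entpd5, Entpd6 and Entpd7 were at log2 fold changes of 0.83, 0.18 and 0.26; 0 passed in edgeR, limma-voom or DESeq2, and 1 had an unadjusted p under 0.05. Entpd4 and its near-identical copy Entpd4b were both listed at 0, and both values are uncertain because the copies share reads.

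Other nucleotide receptors had no call in edgeR. Of 5 tested P2Y receptors besides P2ry6 and P2ry12, 0 passed in edgeR and limma-voom and 1 in DESeq2. At an unadjusted p under 0.05 in edgeR there were 3, against 3040 of all 13496 genes tested. P2ry13, also an ADP receptor, held 19.6 and 22.7 CPM in wt/wt against 22.0 and 12.7 in fl/fl, P2ry2 held 13.6 and 11.3 against 8.21 and 6.85, and P2ry1 held 7.05 and 6.74 against 15.3 and 12.5 (log2 fold change 1.01, adjusted p = 0.0766, edgeR). The exons of P2ry1 overlap an opposite-strand gene over 23.1% of their length, and the strand setting of the counting is not given. P2rx1 held 5.39 and 6.59 CPM against 9.72 and 10.2 (adjusted p = 0.192, edgeR). Adora1 counts were 0 and 14 for wt/wt, then 63 and 0 for fl/fl.

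Genes that respond to cAMP, the messenger of Adora2a and Adora2b, were lower in part. Of 12 such genes, which many other signals also induce, 3 fell, 0 rose and 9 did not pass in edgeR, where 3.16% of all genes passed as lower and 2.69% as higher. DESeq2 called 6 of the 12 lower and 0 higher, where it called 6.18% of all genes lower. In edgeR 8 of the 12 had an unadjusted p under 0.05, all 8 lower, against 3040 of all 13496 genes in either direction. Thbs1, the gene of thrombospondin, held 2841 and 2956 CPM in wt/wt against 1086 and 860 in fl/fl (at a log2 fold change of −1.57 ± 0.19, SE; adjusted p = 0.0135, edgeR). Rgs2, a brake on G-protein signals, held 2147 and 1903 CPM against 779 and 1097 (log2 fold change −1.11, adjusted p = 0.0359, edgeR). The nuclear receptor gene Nr4a3 held 32.5 and 16.8 CPM against 5.18 and 4.68 (log2 fold change −2.32, adjusted p = 0.0212, edgeR). These calls ended without wt/wt 1 or wt/wt 2 as well, at adjusted p from 0.0535 to 0.250, in fits where no gene of the whole table was called. The log2 fold changes there were −1.65 and −1.54 for Thbs1, −1.07 and −1.19 for Rgs2 and −1.82 and −2.72 for Nr4a3. The most abundant genes of the list, Dusp1, Nr4a1 and Fosb, did not pass, and Nr4a1 held 3786 and 4249 CPM in wt/wt against 4109 and 5619 in fl/fl. The median log2 fold change of the 12 was −0.70, against 0.02 for all genes tested.

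Downstream of P2rx7, 0 of 7 inflammasome genes passed in edgeR, limma-voom or DESeq2. In edgeR 1 had an unadjusted p under 0.05, against 3040 of all 13496 genes tested. Their median log2 fold change was 0.13. Il1b, the cytokine precursor that the inflammasome cleaves, held 1927 and 1659 CPM in wt/wt against 967 and 1523 in fl/fl (at a log2 fold change of −0.53, adjusted p = 0.272, edgeR), and it passed without fl/fl 2 (−0.88, adjusted p = 0.0182). Nlrp3, the sensor, held 615 and 355 CPM against 327 and 345, and Gsdmd, the pore-forming protein, 258 and 221 against 271 and 293.

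**Figure D4:**
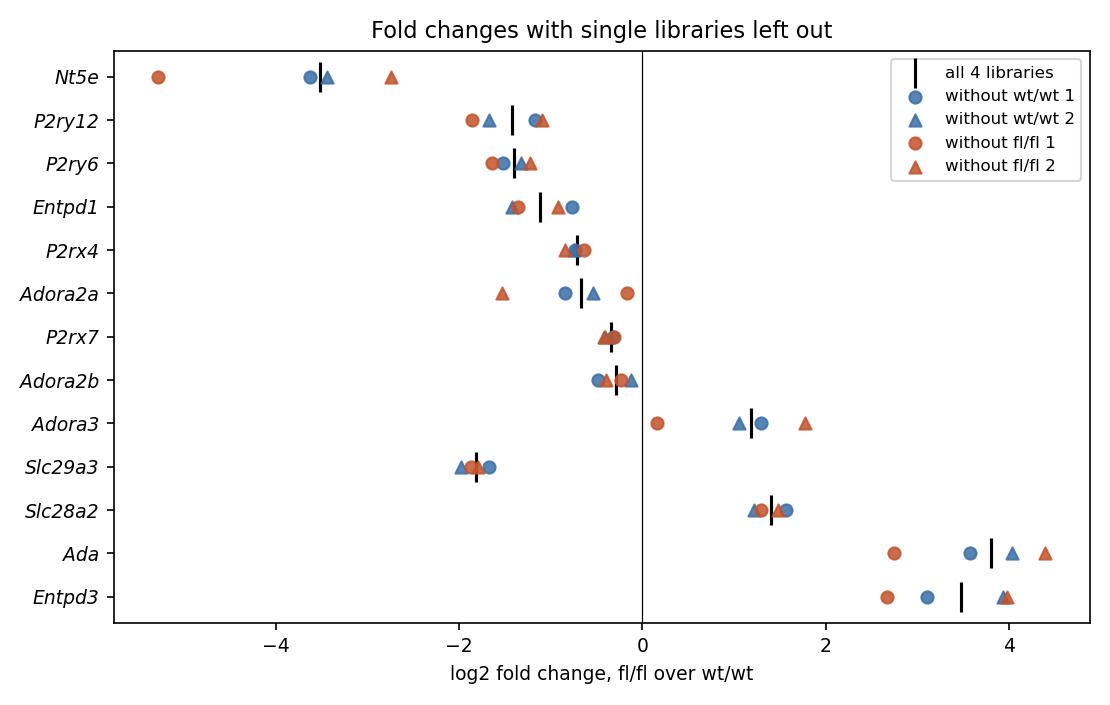
Log2 fold change of fl/fl over wt/wt for the 9 genes and 4 other pathway genes with all libraries (vertical ticks) and with each library left out (symbols). Nt5e ranges from −5.28 to −2.74 and Adora2a from −1.53 to −0.17, while P2ry6 stays between −1.64 and −1.23 and P2rx7 between −0.42 and −0.31.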

How the data were processed

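Gene expression was measured in 4 libraries of sorted liver myeloid cells. The authors deposited 1 table of raw counts per Ensembl gene; FastQC 0.11.5, Trimmomatic 0.33 and STAR 2.5.0 on GRCm38 were used, per the submitters' processing notes, while how reads were counted, with which strand setting and annotation, is not given in the sources used here. Gene symbols and exonic lengths came from GENCODE M21 (55227 of 55487 identifiers matched), and promoters from RefSeq. edgeR 4.0.16 in R 4.3.3 was run on the counts as deposited: filterByExpr at a minimum count of 10 (13496 of 22696 genes with any count kept), TMM scaling, the two-sided quasi-likelihood test without covariates, Benjamini-Hochberg adjustment over all tested genes, a threshold of 0.05 and a prior count of 0.125 for fold changes. Each SE is the size of the log2 fold change divided by the root of the F statistic. CPM per kb divides by merged exonic length. An exact permutation test of 2 libraries against 2 cannot go below p = 0.333 and was not used. In simulated data of 13496 genes, 56% and 100% of 50 genes with log2 changes of 1 and 2 were recovered, with 9 calls among unchanged genes. The changed genes were of at least median level, and each gene varied as the overall trend at its level. The recovery does not cover genes of lower level or with a wider spread between replicates. Likeness used log2 of CPM plus 0.5. Named were the 9 members, Il10ra, pathway and downstream genes that passed, and up to 3 of the highest level in each role. Up to 3 markers a list were named, with those at or near 0. Other genes were named after their values were seen. These were Kit, Gata2, Ms4a2, Prg2, Epx, Itgax, Itgam, Lyz2, Lyz1, Entpd2, Entpd4, Entpd8, Alpl, the copies and overlapping genes (Entpd4b, Tmigd3) and the sex-linked genes. The members and gene lists were chosen with earlier results of these data known. Alternatives were RLE or no scaling factors, no filter, only genes with CPM of at least 5 in 2 libraries, DESeq2 1.42.0, limma-voom (limma 3.58.1), a prior count of 5, the replicate number as a block, and leaving out each library, where its group keeps a lone library that is taken to vary as the other group does.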

Additional observations from a re-analysis of the deposited data

How the results depend on the processing

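RLE scaling, limma-voom and a prior count of 5 left each count of calls within 1.5 times its value. Of all genes, 790 were called by edgeR with the settings described, 1618 by DESeq2 and 2088 with no filter. Of the 8 members other than Nt5e, 1 was called lower, and the number was 4 in DESeq2 and with no filter, 3 with library size only and 3 with the filter at CPM of at least 5. Other pathway genes called higher numbered 4, and 8 in DESeq2, 10 with no filter and 7 with library size only, and those called lower 1, and 3 with no filter. Downstream genes called lower numbered 3, and 6 in DESeq2 and 7 with no filter. With single libraries left out, the ranges were 0 to 1477 for all genes, 0 to 3 and 0 to 1 for members lower and higher, 0 to 9 and 0 to 2 for pathway genes higher and lower, and 0 to 6 for downstream genes lower. The counts of 0 for calls other than members higher came without wt/wt 1 or wt/wt 2, where edgeR had 4 members lower at an unadjusted p under 0.05 in each case, and only the fl/fl pair then informs the spread.

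The replicate numbers of the titles name no shared animal or batch, and deviations of same-numbered libraries from their group means correlated at 0.0215. With the replicate number as a block, 1215 genes were called, with 3 members lower, 7 pathway genes higher and 5 downstream genes lower. The sign changed for genes that were not called: the log2 fold change of Entpd6 was −0.03 without wt/wt 1 and ranged from −0.42 to 0.56 over the libraries left out, that of Pnp from −0.072 to 0.42 and that of P2ry13 from −0.78 to 0.065; the cause was not tested. Depth limits Adora3 and Adora1, with 37 to 108 and 0 to 63 counts a library.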

Other observations

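Per kilobase of exon, the ratio of Nt5e, which makes adenosine, to Ada, which removes it, was 6.04 and 4.97 in wt/wt 1 and 2 and 0.04 and 0.02 in fl/fl 1 and 2. The lower ratio in fl/fl follows from the choice of Nt5e for its fall and of Ada after its values were seen, and it has no test. It is of mRNA summed over all sorted cells, and the data do not show whether both genes are expressed in the same cells. The ratio of Adora2a to Adora2b per kilobase was 0.94 and 0.90 in wt/wt, 0.42 in fl/fl 1 and 0.95 in fl/fl 2.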
